A study of Rattus norvegicus with 18 samples.

Results

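Microtubules are hollow fibres of alpha- and beta-tubulin that run the length of axons and dendrites, and the genes described here encode the tubulins themselves, the proteins that bind and stabilise the fibres, and the motors that walk on them. They were the probes whose gene symbol began with Tuba, Tubb, Kif and a digit, Stmn or Mapre, or named Map1, Map2, Map4, Map6 or Map7 with their older Mtap forms, or was Mapt, Dcx or Dclk1. The rule took 48 of the 21563 gene symbols of the array, read by 52 of its 22523 probes. Of these, 38 probes of 36 symbols passed the detection limit somewhere and entered the tests, among 11079 such probes in all. The cells were rat cortical neurons taken at embryonic day 18, which had received for 6 hours on day 1 after plating a pLKO.1 lentivirus that expressed either an shRNA against CHD5 or a scrambled control shRNA, and no group was left uninfected. CHD5 is a chromatin remodelling ATPase of the Mi2 family that is found mainly in neurons. RNA was taken on days 5, 9 and 12, with 3 arrays (a, b and c) for each lentivirus on each day, so that 18 arrays fell into 6 groups. A single CHD5 shRNA was on the arrays, and no probe was annotated to Chd5, so its own mRNA could not be read here.

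Alpha- and beta-tubulin pair to form the building block of the fibre, and animals carry several genes for each, of which Tubb3 is the form known as a marker of neurons. Structural microtubule-associated proteins such as Map1b, Map2 and Map6 bind along the fibre, Dclk1 is a kinase related to doublecortin, stathmins hold free tubulin and favour disassembly, and the end-binding proteins Mapre1 and Mapre3 track the growing tip. Kinesins are motors, and in neurons those of the kinesin-1, kinesin-2 and kinesin-3 families carry vesicles and organelles towards the axon tip, while another set drives the mitotic spindle and cytokinesis in dividing cells.

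All values below are signals of a probe on the log2 scale after scaling each array to a common mean and SD, called the normalised log2 signal. A difference between groups is a log2 difference with its standard error (SE) from limma, and a probe was called when its Benjamini-Hochberg adjusted p over the kept probes was under 0.05. Since probes bind with different strength, signals are compared between groups for 1 probe and never between probes. The mean deposited signal lay between 400 and 789 on 17 arrays, and 8360 to 9931 probes were detected on each of them. The day 9 control array b stood apart, with a mean signal of 135, an SD of log2 signals of 1.11 against 1.72 to 2.02 on the others, and 7047 probes detected. Scaling stretched this array, and the members showed it. The Tuba1a probe was the brightest of that array at a deposited signal of 16617 and reached 19.80 after scaling, 5.29 above the mean of the other day 9 control arrays. Stmn2, Stmn3, Tubb2c and Stmn1 stood 2.20, 1.92, 1.52 and 1.36 above that mean, while Mtap6 stood 0.87 below it. Differences at day 9 are therefore also given without this array where that changed a call or moved them by over 1.5 times, and since limma shares 1 estimate of the spread over all groups, counts on the other days are given both ways too. In bulk RNA, fewer cells of a type and less RNA per cell cannot be told apart.

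**Figure D1:**
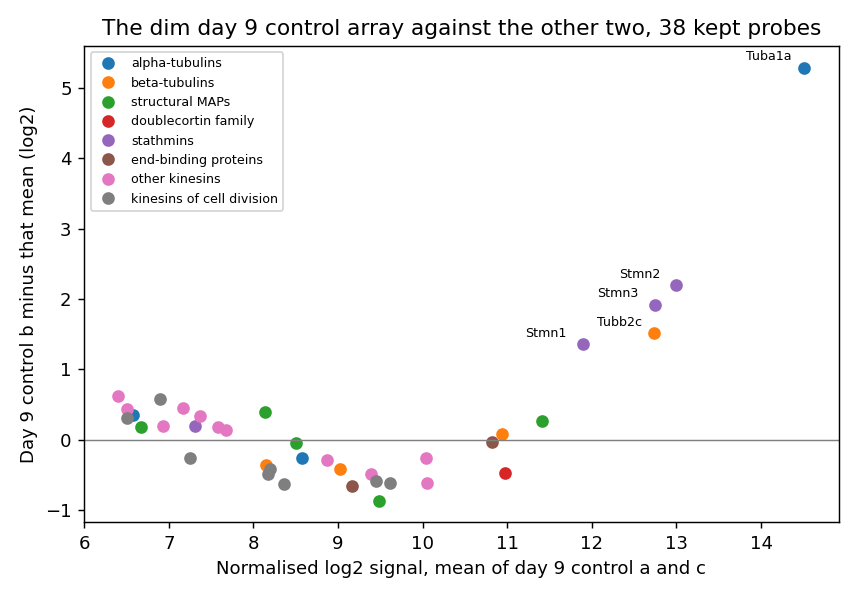
Each point is 1 of the 38 kept probes, coloured by class. The x axis gives its normalised log2 signal as the mean of day 9 control arrays a and c, and the y axis the signal on day 9 control array b minus that mean. Most probes between 8 and 11 lie below 0, by up to 0.87 for Mtap6, and the 5 labelled bright probes lie 1.36 to 5.29 above it.

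After CHD5 shRNA, Tubb3, the neuronal kinesin-1 heavy chains Kif5a and Kif5c, and Kif3c, a kinesin-2 motor subunit, were higher at day 9, and Tubb3, Kif5a and Kif5c were higher at day 12. No member was called lower on any day in the main fit to all 18 arrays. After quantile normalization of all arrays, Mtap6 was called lower at day 9 (-0.65, adjusted p 0.00294) and Kif11 at day 5. At day 5 the main fit called 0 of 38 members (smallest adjusted p 0.377), where 0.171% of all kept probes were called. An unadjusted p under 0.05 was found for 7 members, which is 18.4% of them, against 5.66% of all kept probes. At day 9 it called 4 members, all higher, where 5.89% of all kept probes were called and 3.65% were called higher. At day 12 it called 3 members, all higher, where 5.47% of all kept probes were called and 2.23% were called higher. The median log2 difference over the 38 probes was -0.10, 0.00 and 0.07 on days 5, 9 and 12, against 0.01, -0.02 and 0.01 over all kept probes, and without the dim array the day 9 medians were 0.11 and 0.03. Arrays of the CHD5 shRNA and the control did not overlap for 8, 11 and 19 members on days 5, 9 and 12, where the shares over all kept probes were 11.0%, 20.6% and 38.2%. Without the dim array, which leaves 2 control arrays at day 9, 24 members did not overlap, against 47.2% of all kept probes. Nothing in the labels says that the 3 arrays of a group came from separate cultures, so the p-values measure the spread between these samples, which may be technical.

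**Figure D2:**
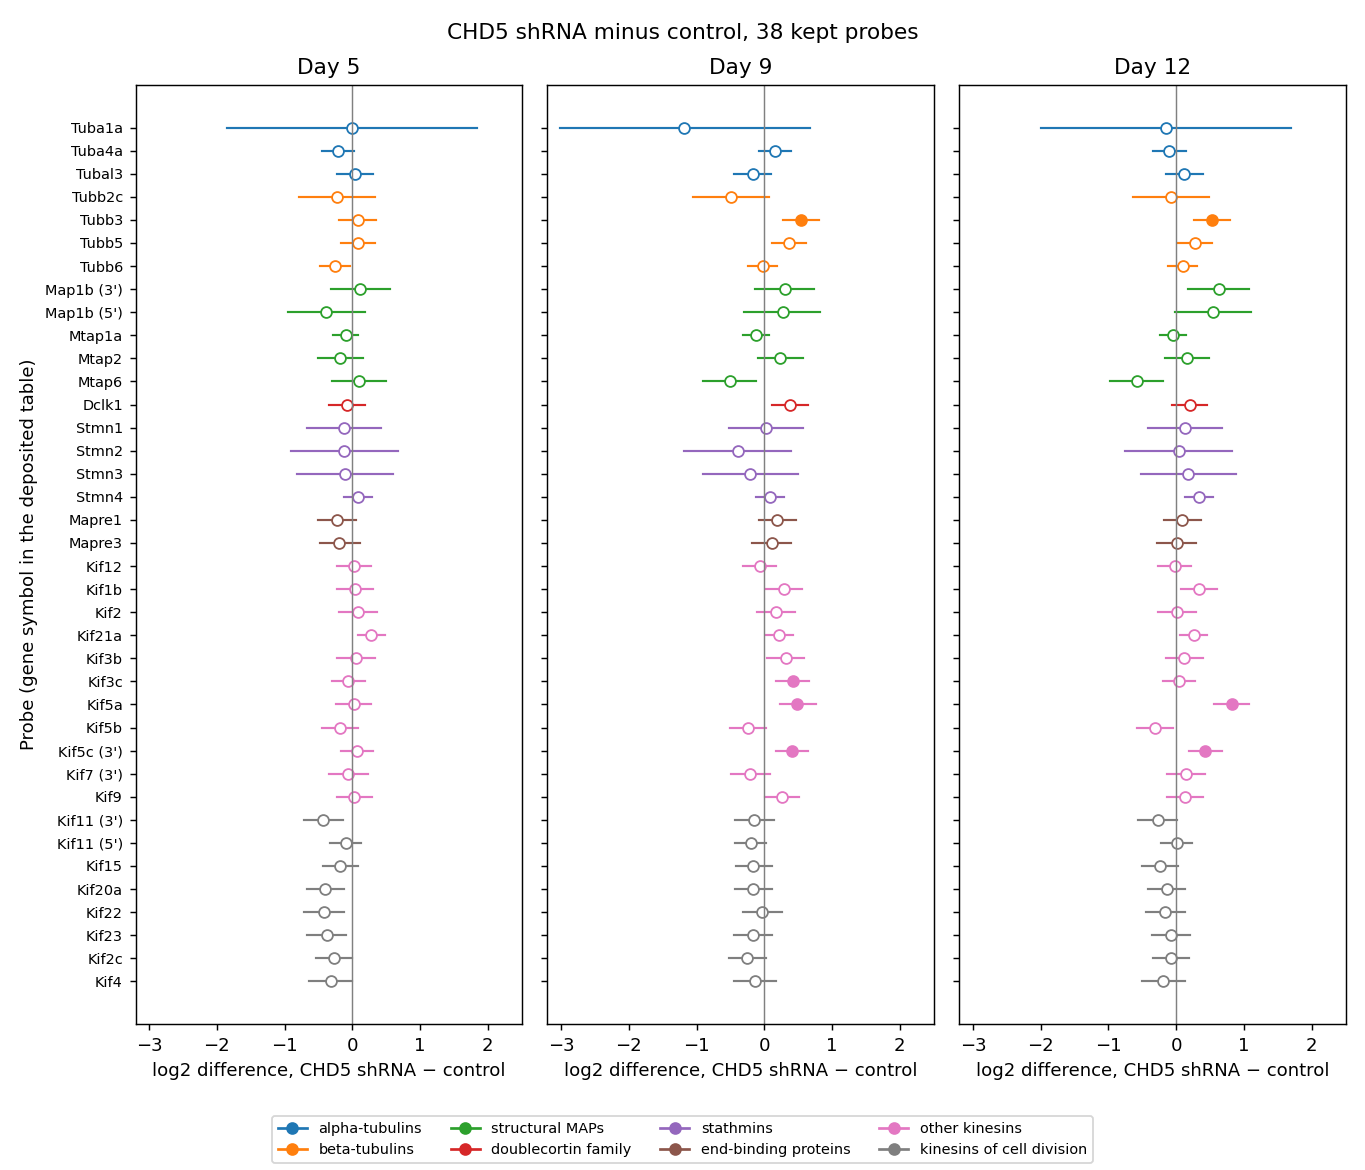
Each row is 1 of the 38 kept probes and each panel a day. Points give the log2 difference between CHD5 shRNA and control, bars its 95% confidence interval from limma, and filled points an adjusted p under 0.05. Filled points are seen for 4 probes at day 9 and 3 at day 12, all to the right of 0, and the grey kinesins of cell division lie left of 0 at day 5 with open points.

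Without the dim day 9 control array b, limma called 2, 6 and 9 members on days 5, 9 and 12, where 1.46%, 10.6% and 13.0% of all kept probes were called. The pair at day 5, Kif11 and Kif22, were lower, and both are motors of the mitotic spindle or chromosomes. At day 9 Tubb3, Kif5a, Kif5c and Stmn1 were higher and Mtap6 and Kif11 lower, and Kif3c was not called (log2 difference 0.33, adjusted p 0.0589). At day 12 Tubb3, Tubb5, Kif5a, Kif5c, Kif1b, Kif21a, Stmn4 and the more 3' probe of Map1b were higher, and Mtap6 was lower.

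The promoters of 6 of the genes the results turn on are printed here. Tubb3, Kif5c and Kif3c were taken because they were called higher after CHD5 shRNA, and Kif5b as the kinesin-1 chain that was not. Tuba4a was taken for its rise with days in culture, and Kif23 as the only kinesin of cell division called in the main fit. The promoters are RefSeq sequences of build GRCr8, 250 bases before to 50 bases after the start, 5' to 3' on the gene's strand. Capitals mark the GC box GGGCGG on either strand in the first 5 and the cell cycle element TTTGAA, known as the CHR, in Kif23. Kif5a had no entry in the table.
Tubb3, chr19:68365437-68365736, + strand: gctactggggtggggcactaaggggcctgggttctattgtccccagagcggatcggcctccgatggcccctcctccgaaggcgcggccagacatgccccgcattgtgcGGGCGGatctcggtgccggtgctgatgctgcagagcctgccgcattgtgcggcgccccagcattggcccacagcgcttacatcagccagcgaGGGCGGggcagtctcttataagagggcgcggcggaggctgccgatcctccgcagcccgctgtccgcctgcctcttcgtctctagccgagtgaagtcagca
Kif5c, chr3:54441057-54441356, + strand: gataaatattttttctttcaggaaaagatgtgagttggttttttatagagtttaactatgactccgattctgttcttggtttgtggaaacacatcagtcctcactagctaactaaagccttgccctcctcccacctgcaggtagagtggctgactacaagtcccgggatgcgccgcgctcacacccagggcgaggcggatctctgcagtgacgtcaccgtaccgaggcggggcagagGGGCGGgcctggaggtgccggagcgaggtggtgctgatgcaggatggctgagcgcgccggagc
Kif3c, chr6:32086629-32086928, + strand: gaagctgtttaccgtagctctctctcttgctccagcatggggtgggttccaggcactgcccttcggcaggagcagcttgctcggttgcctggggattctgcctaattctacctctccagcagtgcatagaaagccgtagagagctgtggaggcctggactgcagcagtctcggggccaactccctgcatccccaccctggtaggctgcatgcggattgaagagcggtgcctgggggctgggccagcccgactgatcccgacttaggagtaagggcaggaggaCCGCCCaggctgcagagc
Kif5b, chr17:56185136-56185435, + strand: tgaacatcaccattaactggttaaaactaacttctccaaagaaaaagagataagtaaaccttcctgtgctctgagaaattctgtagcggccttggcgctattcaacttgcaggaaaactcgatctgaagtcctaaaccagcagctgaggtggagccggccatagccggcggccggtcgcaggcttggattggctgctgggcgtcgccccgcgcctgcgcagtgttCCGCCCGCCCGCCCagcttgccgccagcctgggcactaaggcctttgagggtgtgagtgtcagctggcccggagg
Tuba4a, chr9:84162535-84162834, - strand: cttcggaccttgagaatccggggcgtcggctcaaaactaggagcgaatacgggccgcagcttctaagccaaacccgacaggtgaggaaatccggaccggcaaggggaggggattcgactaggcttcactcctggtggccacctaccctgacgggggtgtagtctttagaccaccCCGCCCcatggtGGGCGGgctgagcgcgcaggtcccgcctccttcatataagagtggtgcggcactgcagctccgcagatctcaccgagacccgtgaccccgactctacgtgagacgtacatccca
Kif23, chr8:71320535-71320834, - strand: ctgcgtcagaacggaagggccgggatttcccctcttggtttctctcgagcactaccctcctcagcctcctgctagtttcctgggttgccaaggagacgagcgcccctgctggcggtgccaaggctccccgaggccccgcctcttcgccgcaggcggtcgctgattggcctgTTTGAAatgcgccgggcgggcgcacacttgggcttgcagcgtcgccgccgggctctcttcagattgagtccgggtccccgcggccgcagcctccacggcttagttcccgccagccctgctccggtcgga
Of the 35 genes with a kept probe 30 had a promoter in the table. The GC box stood in 23 of these 30, against 33.1% of all 33469 promoters. TTTGAA stood in 4 of the 7 promoters of kinesins of cell division and in 0 of the 8 of the other kinesins, against 18.3% of all promoters. It also stood in 2 of the 3 of structural proteins, 1 of the 2 of end-binding proteins and 1 of the 4 of beta-tubulins. Of all 30 it stood in 8. The CCAAT box, searched as CCAAT on both strands, stood in 5 of the 7 of kinesins of cell division, against 37.5% of all promoters. It stood in 4 of the 4 of beta-tubulins, 2 of the 2 of end-binding proteins and 18 of all 30. These are matches of letters and were not tested against the expression values.

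Tubb3 was the tubulin that differed between the lentiviruses. Its normalised log2 signal at day 5 was 11.18, 11.46 and 11.75 on the control arrays and 11.57, 11.43 and 11.63 on the CHD5 shRNA arrays. At day 9 it was 10.90, 11.02 and 10.98 in the control and 11.57, 11.30 and 11.68 after CHD5 shRNA. At day 12 it was 11.29, 11.14 and 11.19 in the control and 11.65, 11.82 and 11.74 after CHD5 shRNA. The arrays of the lentiviruses overlapped at day 5 and stood apart at days 9 and 12, with every CHD5 shRNA array above every control array. The log2 difference was 0.08 (SE 0.13, adjusted p 0.999) at day 5, 0.55 (SE 0.13, adjusted p 0.0175) at day 9 and 0.53 (SE 0.13, adjusted p 0.0185) at day 12, which is 1.46-fold and 1.44-fold at the later days. Without day 9 control array b it was 0.57 (adjusted p 0.00772) at day 9 and 0.53 (adjusted p 0.00424) at day 12. The day 9 call was lost without CHD5 shRNA array a (0.52, adjusted p 0.0771) or c (0.46, adjusted p 0.130), and the day 12 call without control array b or c or CHD5 shRNA array b or c (0.49 to 0.53, adjusted p 0.0670 to 0.0878). Neither was called with median centring (0.78, adjusted p 0.135 and 0.47, adjusted p 0.559) or without the detection filter (adjusted p 0.0503 and 0.0560), and the arrays of day 9 alone did not give the day 9 call (adjusted p 0.302).

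The other beta-tubulins were Tubb2c (now Tubb4b), Tubb5 and Tubb6, and none of them was called for the lentivirus with all arrays. Tubb5, a form made in most cells, was higher by 0.37 at day 9 (SE 0.12, adjusted p 0.0737) and 0.28 at day 12 (SE 0.12, adjusted p 0.228), with no overlap between the arrays on either day, and without the dim array it was called at day 12 (0.28, adjusted p 0.0436) and not at day 9 (0.23, adjusted p 0.146). Tubb6 was -0.25 (adjusted p 0.705) at day 5, with every CHD5 shRNA array below the controls, and -0.02 and 0.10 later, the former -0.14 (adjusted p 0.295) without the dim array. For Tubb2c the day 9 difference moved from -0.49 to 0.01 without the dim array. Tuba1a, the main alpha-tubulin of young neurons, gave no usable value at day 9 with all arrays, since its difference moved from -1.18 (SE 0.88) to 0.59 (adjusted p 0.176) without the dim array and was -0.02 after quantile normalization. Its deposited signals were 19029 to 28949 on the other 17 arrays.

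Kif5a, Kif5b and Kif5c encode the heavy chains of kinesin-1, of which Kif5a and Kif5c are made mainly in neurons and Kif5b in most cells. Kif5a read 7.51, 7.70 and 7.95 in the control and 7.62, 7.79 and 7.81 after CHD5 shRNA at day 5. At day 9 it read 7.38, 7.70 and 7.35 in the control, the 7.70 being the dim array, and 7.86, 7.99 and 8.07 after CHD5 shRNA. At day 12 it read 7.20, 7.21 and 7.36 in the control and 7.99, 8.25 and 7.99 after CHD5 shRNA. The arrays overlapped at day 5 and stood apart at day 9 and by a wide gap at day 12. The log2 difference was 0.02 (SE 0.12, adjusted p 0.999) at day 5, 0.49 (SE 0.12, adjusted p 0.0262) at day 9 and 0.82 (SE 0.12, adjusted p 0.000683) at day 12, a 1.41-fold and a 1.77-fold difference. The day 12 call was kept under all 27 alternatives run (0.74 to 1.21, adjusted p 3.80e-08 to 0.0115). The day 9 call was lost without control array c or any of the CHD5 shRNA arrays of that day (0.43 to 0.55, adjusted p 0.0557 to 0.158) and was 0.60 (adjusted p 0.00219) without the dim array. It was also not called after quantile normalization (0.43, adjusted p 0.0752), median centring (0.48, adjusted p 0.201) or neqc (0.62, adjusted p 0.0850), with the stricter detection filter (0.45, adjusted p 0.0543) or with the arrays of day 9 alone (0.49, adjusted p 0.329). The change of the difference from day 5 to day 12 was 0.80 (SE 0.18, adjusted p 0.0750) with all arrays and 0.80 (SE 0.15, adjusted p 0.00739) without the dim array.

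Kif5c was read by its more 3' probe, since the other was detected on 0 arrays. At day 9 it read 7.71, 7.82 and 7.64 in the control and 8.13, 8.01 and 8.27 after CHD5 shRNA. At day 12 it read 7.80, 7.74 and 7.82 in the control and 8.34, 8.23 and 8.07 after CHD5 shRNA. Every CHD5 shRNA array lay above every control array on both days, and at day 5 the arrays overlapped with a difference of 0.07. The log2 difference was 0.41 (SE 0.11, adjusted p 0.0402) at day 9 and 0.43 (SE 0.11, adjusted p 0.0319) at day 12, a 1.33-fold and a 1.35-fold difference. Both calls stood near the limit. Leaving out any of 9 arrays ended the day 9 call (0.35 to 0.42, adjusted p 0.0536 to 0.227), and leaving out any day 12 array but CHD5 shRNA array c ended the day 12 call (0.36 to 0.45, adjusted p 0.0835 to 0.175), while without the dim array both held (0.46, adjusted p 0.0149 and 0.43, adjusted p 0.00777). Neither was called after quantile normalization (0.33, adjusted p 0.130 and 0.41, adjusted p 0.0629), median centring (adjusted p 0.213 and 0.177) or neqc (adjusted p 0.144 and 0.0798). Of the 27 alternatives, 12 called Kif5c at day 9 and 18 at day 12.

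Kif5b went the other way in value and was not called. It read 7.05, 7.13 and 6.81 in the control and 6.78, 6.79 and 6.71 after CHD5 shRNA at day 9, and 7.24, 7.11 and 6.96 against 6.81, 6.76 and 6.82 at day 12. The arrays did not overlap on either day, with differences of -0.24 (adjusted p 0.307) and -0.31 (adjusted p 0.210), and its probe was detected on only 1 of the 3 CHD5 shRNA arrays at day 9 and 2 at day 12. The day 9 difference was -0.17 (adjusted p 0.404) without the dim array.

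**Figure D3:**
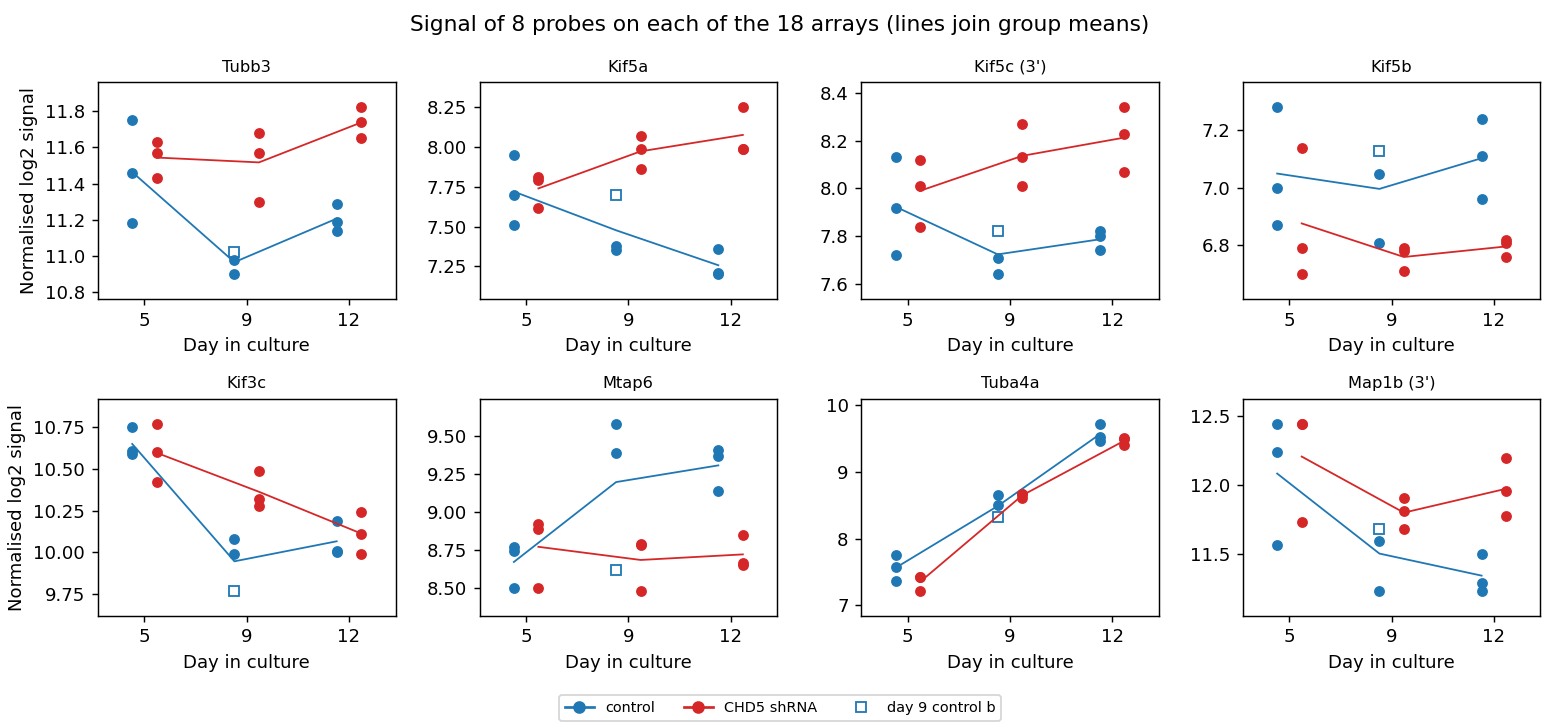
Each panel is 1 probe, with the day in culture on the x axis and the normalised log2 signal of each array on the y axis. Lines join the means of 3 arrays, and the open square is the dim day 9 control array b. Kif5a and Kif5c separate at days 9 and 12 with CHD5 shRNA above, Kif5b with CHD5 shRNA below, and Tuba4a rises together in both.

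Among the other transport motors, Kif3c, which pairs with Kif3a, read 10.08, 9.77 and 9.99 in the control and 10.32, 10.28 and 10.49 after CHD5 shRNA at day 9. The arrays did not overlap, and the log2 difference of 0.42 (SE 0.11, adjusted p 0.0384) fell to 0.33 (adjusted p 0.0589) without the dim array, whose 9.77 was the lowest value. It was also lost on leaving out any of 9 other arrays (0.35 to 0.46, adjusted p 0.0515 to 0.216) and was 0.27 (adjusted p 0.129) after quantile normalization. In all, 11 of 27 alternatives called it. At day 12 the difference was 0.04. Kif3b, another kinesin-2 chain, differed by 0.32 (adjusted p 0.168) at day 9, which became 0.12 (adjusted p 0.416) without the dim array, and by 0.12 (adjusted p 0.815) at day 12. Kif1b, a kinesin-3 motor, differed by 0.29 (adjusted p 0.193, and 0.20 without the dim array) and 0.34 (adjusted p 0.155), with no overlap between the arrays at either day. Kif21a, a kinesin-4 motor, was the only member whose CHD5 shRNA arrays lay above all control arrays at day 5, at 7.92, 7.92 and 7.94 against 7.52, 7.66 and 7.77, and its difference was 0.28 (adjusted p 0.464) at day 5 and 0.26 (adjusted p 0.155) at day 12. The probe named Kif9 in the file carries a gene number that RefSeq now gives to Setd2, a histone methyltransferase, so its values cannot be read as Kif9. Kif2 (now Kif2a), which disassembles microtubules, differed by 0.09, 0.18 and 0.01 on the 3 days, the day 9 value being 0.33 (adjusted p 0.0865) without the dim array, and the probes of Kif12 and Kif7 were detected on 1 array each.

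Of the classes of members, the kinesins of cell division had the lowest median difference at day 5. All 8 kept probes, of Kif11, Kif15, Kif20a, Kif22, Kif23, Kif2c and Kif4 (now Kif4a), were lower in value after CHD5 shRNA, with a median log2 difference of -0.35 and a range of -0.43 to -0.10, and for 5 of them the arrays did not overlap, as they did not for 11.0% of all kept probes. None was called in the main fit to all 18 arrays. Kif11, the motor that pushes spindle poles apart, read 9.49, 9.50 and 9.39 in the control and 8.95, 9.23 and 8.92 after CHD5 shRNA, a difference of -0.43 (SE 0.13, adjusted p 0.377). Kif22, a motor on chromosome arms, read 9.79, 9.53 and 9.46 against 9.26, 9.17 and 9.08, a difference of -0.42 (SE 0.14, adjusted p 0.405). Without the dim array of day 9, which enters these differences only through the shared estimate of spread, both were called with the same differences (SE 0.09 and 0.09, adjusted p 0.0175 and 0.0185). Quantile normalization and neqc of all arrays also called Kif11 lower at day 5. Kif20a and Kif23, which act in cytokinesis, differed by -0.40 (adjusted p 0.405) and -0.38 (adjusted p 0.494). The median of the 8 was -0.16 at day 9, which became -0.27 without the dim array, and -0.15 at day 12. At day 12 Kif11 read 9.22, 9.18 and 9.14 in the control and 8.86, 9.09 and 8.78 after CHD5 shRNA, a difference of -0.27 (SE 0.13, adjusted p 0.337). The second probe of Kif11, nearer the 5' end, was detected on 1 array and says nothing about it.

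A list of 18 probes of other genes of dividing cells, such as Ccnb2, Mcm2 and Mki67, had differences from -0.55 to 0.14 at day 5. Its median difference was -0.32 at day 5, -0.13 at day 9 and -0.15 at day 12, and 17 of the 18 were below 0 at day 5. With all arrays 0 were called on any of the 3 days. On leaving out the dim array, 7, 3 and 2 were called lower on days 5, 9 and 12, and the day 9 median was -0.20. The counts were 38.9%, 16.7% and 11.1% of the list. Of all 11079 kept probes, 113, 731 and 765 were called lower on these days, which was 1.02% at day 5 and 6.90% at day 12. The list thus lay far above all kept probes at day 5 and much nearer to them on the later days. Summed over the list, the deposited signal at day 5, which is not scaled for the brightness of an array, was 15418 to 29489 in the control and 13505 to 19636 after CHD5 shRNA. The mean normalised log2 signal of the list at day 5 was 8.67 to 8.78 in the control and 8.41 to 8.49 after CHD5 shRNA. The part of these genes in the kinesin values was not tested.

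Of the structural proteins, Mtap6 (now Map6), which makes microtubules resistant to cold, had the lowest log2 difference of all members at day 12. It read 9.14, 9.37 and 9.41 in the control and 8.85, 8.65 and 8.66 after CHD5 shRNA, with no overlap. The log2 difference was -0.58 (SE 0.19, adjusted p 0.0861) with all arrays and -0.58 (SE 0.12, adjusted p 0.00224) without the dim array of day 9. At day 9 the control arrays read 9.58, 8.62 and 9.39, of which 8.62 was the dim array, and the CHD5 shRNA arrays 8.79, 8.78 and 8.48. The difference of -0.51 (adjusted p 0.121) became -0.80 (SE 0.13, adjusted p 0.000655) without that array. Quantile normalization of all arrays gave -0.65 (adjusted p 0.00294) at day 9. Of the 27 alternatives, 4 called Mtap6 lower at day 9 and 7 at day 12. At day 5 the difference was 0.10 (adjusted p 0.999), and the change of the difference from day 5 was not called with all arrays (-0.61 and -0.68, adjusted p 0.638 and 0.518). Without the dim array it was called for day 9 (-0.90, adjusted p 0.0287) and day 12 (-0.68, adjusted p 0.0364), where 0.623% and 2.36% of all kept probes were called, and with array weights it was called for day 12 (-0.82, adjusted p 0.0276) and not for day 9.

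Map1b, a protein of growing axons, had 2 probes, and both read higher after CHD5 shRNA at day 12 without a call. The more 3' probe read 11.23, 11.50 and 11.29 in the control and 11.77, 12.19 and 11.95 after CHD5 shRNA, a difference of 0.63 (SE 0.21, adjusted p 0.102). The more 5' probe read 7.86, 8.08 and 7.79 against 8.51, 8.54 and 8.33, a difference of 0.55 (SE 0.27, adjusted p 0.330). Neither probe's arrays overlapped. Without the dim array the more 3' probe was called (0.63, SE 0.19, adjusted p 0.0384) and the other was not. Both were called with the replicate block within each day (adjusted p 0.0110 for the more 3' probe and 0.0258 for the other), with array weights (0.000113 and 0.000855) and with the arrays of day 12 alone (0.000226 and 0.000181). Mtap2 (now Map2), the protein of dendrites, differed by -0.18, 0.24 and 0.16 on days 5, 9 and 12 (adjusted p 0.408 to 0.999). Dclk1 differed by -0.08, 0.38 and 0.20 (adjusted p 0.0858 to 0.999), and its day 9 value became 0.22 (adjusted p 0.179) without the dim array. The end-binding proteins Mapre1 and Mapre3 differed by -0.22 to 0.19 (adjusted p 0.435 to 0.999), and Mapre3 at day 9 moved from 0.11 to -0.11 without that array. The 4 stathmins had 0 calls on any day with all arrays. The nearest was Stmn4 at day 12, with 7.03, 7.05 and 7.20 in the control and 7.36, 7.48 and 7.43 after CHD5 shRNA, a difference of 0.33 (SE 0.10, adjusted p 0.0551) that became called without the dim array (adjusted p 0.0105). At day 9 the bright probes of Stmn1, Stmn2 and Stmn3 moved from 0.03, -0.39 and -0.21 to 0.48, 0.34 and 0.43 without it, and of these Stmn1 was called (adjusted p 0.0443). After quantile normalization of all arrays they were 0.23, 0.04 and 0.15 (adjusted p 0.363, 0.879 and 0.489). That setting kept the dim array, so for the Stmn1 call the scaling and the array cannot be told apart.

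With days in culture, the members changed in both directions, and Tuba4a made the largest rise of those called. The larger value of Tuba1a from day 5 to day 9 in the control, 2.12 (SE 0.88, adjusted p 0.0876), was not called and became 0.36 without the dim array. In the control, limma called 13 members between day 5 and day 9, 2 higher and 11 lower, where 22.0% of all kept probes were called, 9.18% higher and 12.8% lower. Between day 5 and day 12 it again called 2 higher and 11 lower, where 23.6% were called, 11.1% higher and 12.5% lower. After CHD5 shRNA it called 1 higher and 1 lower at day 9, where 9.33% of all kept probes were called, 4.61% higher and 4.72% lower, and 1 higher and 3 lower at day 12, where 17.0% were called, 8.46% higher and 8.56% lower. Without the dim array the counts were 14 and 18 in the control (20.7% and 38.4% of all kept probes) and 9 and 12 after CHD5 shRNA (25.4% and 31.6%). The change of the lentivirus difference from day 5 itself was called for 0 members at day 9 (8 at an unadjusted p under 0.05, as were 7.30% of all kept probes, with 0% called) and 0 at day 12 (6 at an unadjusted p under 0.05, as were 6.75% of all kept probes, with 0.153% called), so the smaller counts after CHD5 shRNA are not a tested difference. The median over the 38 probes from day 5 to day 12 was -0.22 in the control and -0.05 after CHD5 shRNA, against -0.02 and -0.01 over all kept probes.

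**Figure D4:**
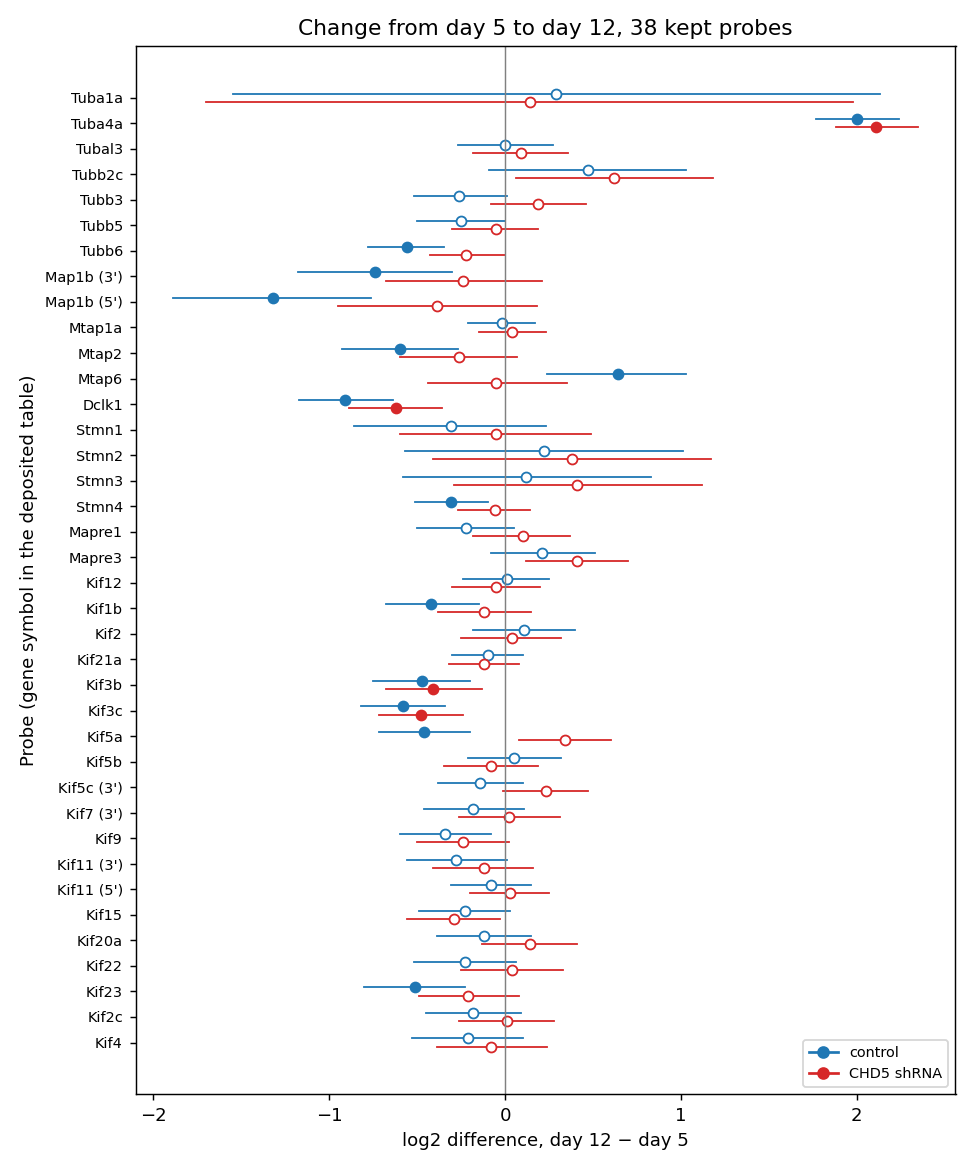
Each row is 1 of the 38 kept probes. Points give the log2 difference between day 12 and day 5, in blue for the control and in red for CHD5 shRNA, bars the 95% confidence interval from limma, and filled points an adjusted p under 0.05. Tuba4a lies near 2 with both lentiviruses, Dclk1, Kif3b and Kif3c are filled left of 0 with both, and Kif5a lies left of 0 in the control and right of it after CHD5 shRNA.

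Tuba4a, an alpha-tubulin of mature neurons and platelets, read 7.75, 7.58 and 7.36 in the control at day 5, then 8.50, 8.32 and 8.65 at day 9, then 9.46, 9.72 and 9.52 at day 12. After CHD5 shRNA it read 7.22, 7.42 and 7.42, then 8.61, 8.67 and 8.67, then 9.41, 9.49 and 9.51. No array of one day overlapped with another day. The rise from day 5 to day 12 was 2.0 (SE 0.11, adjusted p 3.97e-10) in the control and 2.11 (SE 0.11, adjusted p 4.34e-10) after CHD5 shRNA, a 4.01-fold and a 4.33-fold rise, and was called under all 26 alternatives run for each. The lentiviruses differed by -0.21, 0.16 and -0.10 on the 3 days (adjusted p 0.454 to 0.964), the day 9 value being 0.07 without the dim array.

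Dclk1 read 11.82, 11.95 and 11.75 at day 5 and 10.94, 10.87 and 11.00 at day 12 in the control, a fall of 0.91 on the log2 scale (log2 difference -0.91, SE 0.13, adjusted p 2.91e-05), and it fell after CHD5 shRNA too, from 11.80, 11.73 and 11.75 to 11.16, 11.13 and 11.12 (-0.62, SE 0.13, adjusted p 0.00180). The more 5' probe of Map1b read 8.49, 9.87 and 9.35 at day 5 and 7.86, 8.08 and 7.79 at day 12 in the control (-1.32, SE 0.27, adjusted p 0.00124), and after CHD5 shRNA it differed by -0.39 over the same days (SE 0.27). The day 5 arrays of that probe spread widely, and array a lay lowest with both lentiviruses. The more 3' probe fell by 0.74 in the control (SE 0.21, adjusted p 0.0148), a call that was lost without day 5 control array b or c or day 12 control array a or c (adjusted p up to 0.0957). Mtap2 was lower at day 12 in the control by -0.60 (SE 0.16, adjusted p 0.00927), and this call was lost without day 5 control array b (-0.52, adjusted p 0.0523).

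Kif3c and Kif3b fell with both lentiviruses from day 5 to day 12. Kif3c went from 10.59, 10.61 and 10.75 to 10.19, 10.01 and 10.00 in the control (-0.58, SE 0.11, adjusted p 0.000922) and differed by -0.48 after CHD5 shRNA (SE 0.11, adjusted p 0.00620). Kif3b differed by -0.47 in the control (SE 0.13, adjusted p 0.0130, and -0.44, adjusted p 0.0527, without day 5 control array b) and -0.41 after CHD5 shRNA (SE 0.13, adjusted p 0.0391), the latter not called in 12 of 26 alternatives. Kif5a fell in the control, from 7.51, 7.70 and 7.95 to 7.20, 7.21 and 7.36 (-0.46, SE 0.12, adjusted p 0.0113, and -0.35, adjusted p 0.0609, without day 5 control array c), and differed by 0.34 after CHD5 shRNA (SE 0.12, adjusted p 0.0719, and 0.0171 without the dim array). Kif1b (-0.42), Kif23 (-0.51), Tubb6 (-0.56) and Stmn4 (-0.31) were also called lower at day 12 in the control. After CHD5 shRNA their differences were -0.12, -0.21, -0.22 and -0.06, of which that of Tubb6 was called without the dim array (adjusted p 0.0355). The change of the lentivirus difference was called for none of these 4 (adjusted p 0.590 to 0.975).

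Mtap6 rose in the control from 8.77, 8.74 and 8.50 at day 5 to 9.14, 9.37 and 9.41 at day 12 (0.64, SE 0.19, adjusted p 0.0192). The call was lost on leaving out any of 3 arrays (0.55 to 0.60, adjusted p 0.0643 to 0.0735). It differed by -0.05 after CHD5 shRNA (SE 0.19, adjusted p 0.907). Tubb3 was lower at day 9 than at day 5 in the control, by -0.50 (SE 0.13, adjusted p 0.00935, and -0.53 without the dim array, adjusted p 0.00654). At day 12 it differed from day 5 by -0.26 (adjusted p 0.163) in the control and 0.19 after CHD5 shRNA. At day 9 Tubb5 (-0.60), Tubb6 (-0.37), Mapre1 (-0.39), Kif1b (-0.40) and the probe named Kif9 (-0.51) were also called lower in the control, of which Tubb5 (-0.46), Tubb6 (-0.25) and the probe named Kif9 (-0.34) were called without the dim array too and Mapre1 and Kif1b were not (adjusted p 0.0576 and 0.0813). Mapre1 was also not called on leaving out any of 12 other arrays (-0.42 to -0.34, adjusted p 0.0507 to 0.0973). The size of the Tubb2c rise at day 9 in the control, 0.83 (adjusted p 0.0330), rested on the dim array, since it was 0.33 (adjusted p 0.0579) without it. Leaving out any of 3 other arrays ended the call too (0.78 to 0.87, adjusted p 0.0570 to 0.101). With all arrays the rise was 0.34 (adjusted p 0.0134) after quantile normalization and -0.07 with median centring. Without the dim array Tubb2c was called higher at day 12 in the control (0.47, adjusted p 0.00152). It was then also called higher at days 9 and 12 after CHD5 shRNA (0.56, adjusted p 0.000825 and 0.62, adjusted p 0.000154). The main fit called none of these 3.

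No kept value exists for 14 probes that were not detected on any array. These were the probes of Kif13a, kif13B, Kif14, Kif16b, Kif1a, Kif1c, Kif2b, Kif6, Mtap4, Mtap7, Tuba6 and Tuba8 and a second probe each of Kif5c and Kif7. No probe was named Mapt, Dcx, Tubb2b or Mapre2. Kif1a, the kinesin-3 motor of synaptic vesicle precursors, and Mtap4 are made in neurons and other cells, so a probe that is not above background gives no statement about the gene. Another 4 probes, of Kif12, Tubal3 and Kif7 and the more 5' probe of Kif11, were detected on 1 array each, and that of Mtap1a (now Map1a) on 4.

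Beyond the members, a list of other genes of the same system had 61 kept probes, among them dynein and dynactin subunits, gamma-tubulin complex genes, tubulin-modifying enzymes and plus-end proteins. At day 5 limma called 0 of them after CHD5 shRNA. At day 9 it called 8 higher and 0 lower, and at day 12 it called 3 higher and 1 lower. Of all kept probes, 3.65% and 2.23% were called higher on days 9 and 12, and 249 and 359 of 11079 lower. With the dim array left out, limma called 8 higher and 4 lower at day 9, and 11 higher and 4 lower at day 12. Of all kept probes, 4.02% and 6.13% were then called higher, and 731 and 765 of 11079 lower. The 4 lower were 6.56% of the list on each day, and 765 of 11079 is 6.90%. The 8 higher at day 9 were not the same genes. Kifap3, Ndel1 and Ttll1 were no longer called, and Dynlrb1, Dynlt1 and Map1lc3b were called instead. Agtpbp1, which removes glutamates from the tails of tubulin, was higher by 0.48 (SE 0.10, adjusted p 0.00797) at day 9 and 0.54 (SE 0.10, adjusted p 0.00246) at day 12. Clip2, a plus-end linker, was higher by 0.41 (adjusted p 0.0262) and 0.36 (adjusted p 0.0460), and the gene now named Clip3 by 0.61 (adjusted p 0.0239) and 0.59 (adjusted p 0.0261). Tubg1 was higher at day 9 by 0.73 (SE 0.17, adjusted p 0.0176), and by 0.43 (adjusted p 0.00616) without the dim array. At day 12 Tubg1 differed by 0.53 (adjusted p 0.0811, and 0.000211 without the dim array). Map1lc3a was higher at day 9 by 0.48 (adjusted p 0.0259), and by 0.49 (adjusted p 0.0149) without that array. Kifap3, which joins the kinesin-2 motor to its cargo, was higher at day 9 (0.47, SE 0.13, adjusted p 0.0479) and differed by 0.44 (adjusted p 0.0640) at day 12. On leaving out the dim array, Kifap3 was called at day 12 (adjusted p 0.0118) and not at day 9 (0.35, adjusted p 0.0853). Dynlt3, a light chain of dynein, was lower at day 12 (-0.90, SE 0.15, adjusted p 0.00159). Over the list the median difference was 0.06, 0.07 and 0.13 on days 5, 9 and 12.

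Markers of other cell types moved with the lentivirus and with time. Of 10 kept probes of astrocyte genes, 7 were called lower after CHD5 shRNA at day 9 and 7 at day 12, with median differences of -1.02 (-0.76 without the dim array) and -0.76, and all 10 were called higher between day 5 and day 12 in the control. Of all kept probes, 0.171%, 5.89% and 5.47% were called for the lentivirus on days 5, 9 and 12. Lower were 249 and 359 of 11079 on days 9 and 12. Between day 5 and day 12 in the control, 11.1% of them were called higher. The deposited signal summed over the 12 astrocyte probes was 52017 to 60371 in the control and 26580 to 30694 after CHD5 shRNA at day 12. Of 9 kept probes of the oligodendrocyte lineage 2 were called lower at day 9 and 2 at day 12, and of 3 kept fibroblast probes 2 and 2. At day 9 without the dim array, 3 of the oligodendrocyte lineage were called lower and 1 higher, where 731 and 445 of 11079 kept probes were. Of 13 probes of neuronal genes outside the members, such as Snap25, Syp and Nefl, 0 were called on any day for the lentivirus, and their median differences were -0.08, 0.06 (0.09 without the dim array) and 0.18. At day 12, 1 was called higher and 1 lower without the dim array, where 6.13% and 6.90% of all kept probes were. The summed neuronal signal at day 12 was 46682 to 58012 in the control and 50160 to 59938 after CHD5 shRNA, and at day 12, 7 of the 13 lay above and 3 below the control arrays without overlap, where 38.2% of all kept probes did not overlap. The mean normalised log2 signal of the 13 at day 12 was 9.73 to 9.81 in the control and 9.86 to 9.89 after CHD5 shRNA. Of 9 microglial markers, Itgam, Cx3cr1, Ptprc and the 3 C1q genes were not detected on any array, and the others on at most 3, while Gfap was detected on all 18. The part of these cell types in the values of the tubulins, kinesins and microtubule proteins was not tested.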

How the data were processed

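Gene expression of rat cortical neurons was read on 18 Illumina Rat Ref-12 BeadChip arrays. The deposited signal intensities are means over the beads of a probe, extracted by the authors with GenomeStudio 1.1.1, per the labels, without normalization or background subtraction. The deposited detection p-value, computed by the authors, sets a signal against negative control beads on the same array. The study's own normalization was a Z-score per array. For replicate a the table holds a second measurement of all 6 arrays, for reasons not given in the sources used here. It was used only in an alternative. On these arrays the members differed by a median of 0.07 to 0.12 on the log2 scale between measurements.

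Probes were kept where the detection p-value did not exceed 0.02 on 1 array or more. Their log2 signals were Z-scored per array and brought back to the log2 scale with the average array SD, 1.79. With R 4.3.3 and limma 3.58.1, lmFit and eBayes were run on all 18 arrays with 6 groups and 9 contrasts, and p-values were adjusted after Benjamini and Hochberg over all 11079 kept probes of each contrast. Depth has no meaning for arrays, and their number limits the precision.

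Members and gene lists were chosen with earlier results of these data known. Named in the text are members called for the lentivirus, a fixed list (Tubb3, Tubb2b, Tuba1a, Mapt, Map2, Map1b, Dcx, Stmn1, Stmn2, Kif1a, Kif5a, Kif5c, Kif11 and Mapre1, where a probe exists) and the 4 largest called rises and falls of each day contrast, where the higher group had the probe detected on every array. Members outside this rule were named after their values were seen, to account for all of them. Symbols are those of the file, with current ones from RefSeq by gene number or accession, which matched all 52 members. The 50-base probes of kept members shared at most 30 bases in an ungapped alignment with any other probe of the array.

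Arrays were not paired by replicate letter in the main fit, on any day, so its p-values take no account of pairing. At day 5 the deviations of same-lettered arrays from their groups correlated by 0.27, 0.17 and 0.38. At day 9 they correlated by 0.43, 0.15 and -0.20 and at day 12 by 0.05, 0.15 and 0.01. The alternatives were quantile normalization, median centring, neqc with an offset of 16, other detection filters, array weights, a replicate block within each day, both measurements averaged, only the arrays of a day, and each array left out in turn.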

Additional observations from a re-analysis of the deposited data

How the results depend on the processing

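At day 5, where 0 members were called for the lentivirus, quantile normalization and neqc each called 2, and leaving out 1 array gave 0 to 2. The 4 calls at day 9 became 2 with quantile normalization, 0 with median centring and 2 with neqc. With quantile normalization and with neqc the calls were Tubb3, higher, and Mtap6, lower, and Kif5a, Kif5c and Kif3c were not called. The 4 calls became 2 without the detection filter and 2 when detection was asked of all 3 arrays in a group. They became 0 with only the arrays of the day, and 0 to 9 on leaving out 1 array. The 3 calls at day 12 became 1 with median centring, 14 with array weights, 14 with only the arrays of the day and 1 to 9 on leaving out 1 array. With the replicate block within each day, in which same-lettered arrays are paired, the counts for the lentivirus were 0, 4 and 5, and the block moved no other count by over 1.5 times. In the control, the 13 calls from day 5 to day 9 became 5 with array weights and 9 to 21 on leaving out 1 array, and the 13 to day 12 became 8 with median centring and 8 to 18 on leaving out 1 array. After CHD5 shRNA, the 2 calls to day 9 became 6 with quantile normalization, 5 with neqc, 1 with median centring, 14 with array weights and 2 to 9 on leaving out 1 array, and the 4 to day 12 became 1 with median centring, 14 with array weights and 3 to 12 on leaving out 1 array. The change of the lentivirus difference, with 0 calls, gave 0 to 1 at day 9 and 0 to 2 at day 12 on leaving out 1 array, and 2 at day 12 with array weights. The highest counts on leaving out 1 array came without day 9 control array a for the lentivirus difference at day 9 and for day 5 to day 9 in the control. For the other contrasts they came without day 9 control array b. The pooled spread then rests on fewer arrays, and leaving out array a keeps the dim array b in its group. The rise of Tubb2c at day 9 in the control turned to -0.07 with median centring. The cause of these moves was not tested. The slide as a block was not run, since the table names no slide. The median over the members moved by less than the spread between arrays except at day 9 for the lentivirus, from 0.00 to 0.15 with median centring. No scaling moved the median of all kept probes by over 0.1.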
